A study of Rattus norvegicus with 6 samples.

Results

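Hmox1 (ENSRNOG00000014117) and Nqo1 (ENSRNOG00000012772), a pair of genes switched on by the transcription factor NRF2, were followed in the lens capsule of rats with selenite cataract. These 2 genes were picked by name from the 22263 genes of the mRNA count table, because sodium selenite (Na2SeO3) is an oxidant of the lens and both genes are standard markers of the oxidative stress response. The rule names the genes and sets no threshold on their values, although earlier results of these data were known when it was written. The samples came from 6 Sprague Dawley rat pups, which were 8 days old when the model was begun. The 3 rats of the Na2SeO3 group (titled Model) were injected under the skin of the neck with Na2SeO3 at 20 µmol/kg body weight, first on day 3, then on day 5 and last on day 7, and the 3 rats of the control group (titled WT) received the same volume of saline. The sources do not state what these days are counted from. As days of age they would fall before the stated age of 8 days when the model was begun. The lenses were taken on day 15 of the experiment, so the counts show that day and no earlier one, and the labels give neither sex nor litter. One capsule per rat was sequenced in bulk, so a smaller number of expressing cells and less RNA per cell cannot be told apart.

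In resting cells NRF2 is bound by KEAP1 and degraded. Oxidants and electrophiles modify KEAP1, and NRF2 then accumulates, enters the nucleus and binds antioxidant response elements (AREs) of its target genes together with small MAF proteins. Hmox1 encodes heme oxygenase 1, which opens the heme ring to give biliverdin, carbon monoxide and free iron, and it is also repressed by the heme sensor BACH1. Nqo1 encodes NAD(P)H quinone dehydrogenase 1, which reduces quinones to hydroquinones and so keeps them from cycling with oxygen. The lens is exposed to light and oxidants and depends on glutathione and on enzymes of this kind to keep its proteins soluble.

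Because NRF2 acts through letters in the DNA near its targets, the stretch of 250 bases in front of the Nqo1 start is shown here with an ARE-like match in capitals. It was taken from RefSeq (rat build GRCr8, chr19:52220268-52220517, minus strand, written 5′ to 3′ toward the gene), and these are RefSeq positions, since the build behind the counts was not stated. No promoter of Hmox1 was used here.

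Nqo1: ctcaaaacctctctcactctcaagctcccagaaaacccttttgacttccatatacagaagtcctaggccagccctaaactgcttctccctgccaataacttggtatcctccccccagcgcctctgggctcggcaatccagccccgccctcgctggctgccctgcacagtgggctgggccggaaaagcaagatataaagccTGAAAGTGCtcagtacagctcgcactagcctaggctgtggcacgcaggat

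Both strands were searched. The ARE core TGACNNNGC had 0 matches in this window, and 10.1% of the 33469 RefSeq promoter windows of the same length held at least 1. The looser pattern TGANNNNGC, which includes every TGACNNNGC, had 1 match, TGAAAGTGC, starting 50 bases before the Nqo1 start, and 34.7% of all windows held one. A string match to the TATA box motif, TATAAA, began 59 bases before the start and did not overlap the ARE-like match (12.9% of windows held this motif). A match is a string of letters and not a measured binding site, and elements outside this window were not searched.

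A rise after selenite was not shown for either gene. Nqo1 fell to 51.1% of its control level (95% interval 42.2% to 62.0%), while Hmox1 stood at 89.4% of its control level with an interval that included no change (78.1% to 102%). These estimates are from the edgeR quasi-likelihood test with 3 rats per group, on counts scaled by TMM factors (trimmed mean of M-values), which adjust the library totals so that a few abundant genes do not set the level of the rest.

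For Nqo1, the control rats had 227, 191 and 265 counts in replicates 1, 2 and 3, and the Na2SeO3 rats had 111, 117 and 135 counts. Scaled to each column's total as counts per 1000000 (CPM), these were 15.4, 16.1 and 16.4 CPM in the control group. The Na2SeO3 replicates had 8.14, 8.66 and 10.6 CPM. The highest Na2SeO3 rat thus lay below the lowest control rat, and the groups did not overlap. Such a lack of overlap in this direction, by CPM from column totals, was common in these samples, since 16.1% of the 14906 genes tested showed it. The control rats averaged 16.0 ± 0.52 CPM and the Na2SeO3 rats 9.13 ± 1.29 CPM (SD, n = 3). The two-sided exact permutation test of this difference gave p = 0.1, which is the lowest that 3 rats against 3 can give. Benjamini-Hochberg adjustment over the 3 measures tested in this way raised it to 0.15.

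**Figure D1:**
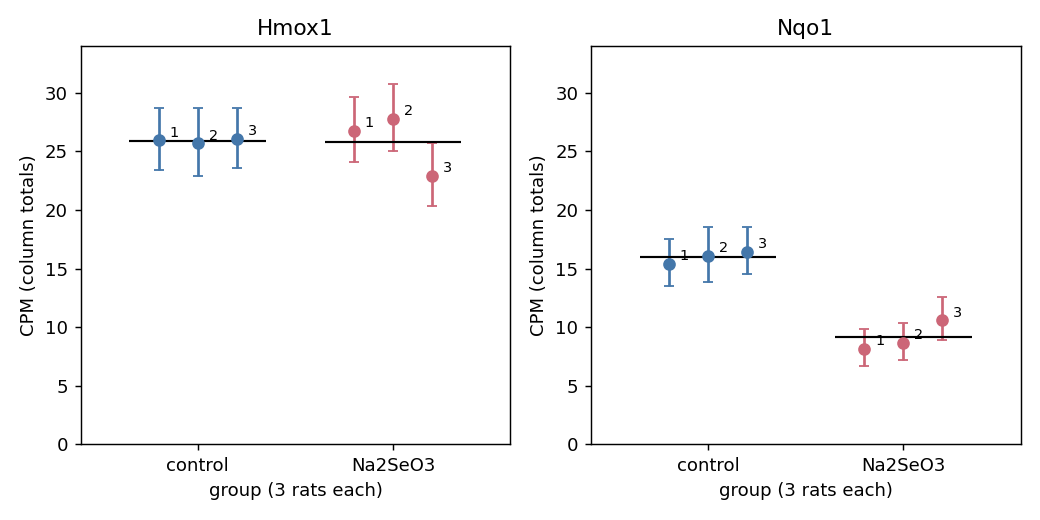
CPM of Hmox1 (left) and Nqo1 (right) in each rat, with exact 95% Poisson intervals for counting error as bars, the replicate number beside each point and the group mean as a black line. The Nqo1 points of the Na2SeO3 group, 8.14 to 10.6 CPM, all sit below the control points, 15.4 to 16.4 CPM, whereas the Hmox1 points of the groups are interleaved, with Na2SeO3 replicate 3 lowest.

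In the fit across all genes, the log2 fold change of Nqo1 was -0.97, with an approximate SE of 0.13 and a Benjamini-Hochberg adjusted p of 9.86e-07 in edgeR. Lower expression with an adjusted p under 0.05 was found for 23.7% of the genes tested, and higher expression for 23.2%, so Nqo1 shared this with many other genes. It ranked further out by size, since 842 genes (5.65%) had a lower log2 fold change. In this fit its fall was just short of the study's criterion for a differentially expressed gene. That criterion was an absolute log2 fold change above 1 besides an adjusted p under 0.05. Of the genes tested, 5.23% met it in this direction, more genes than the study itself reported as lower. The 95% interval of the log2 fold change, -1.24 to -0.69, included -1, so these rats do not settle on which side of the threshold Nqo1 lies. The estimate also moved across it with Na2SeO3 replicate 3, the highest of its group. Without this rat the log2 fold change was -1.09 (adjusted p = 8.13e-07), past the criterion, and with each of the other rats left out it was between -0.99 and -0.88.

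For Hmox1, the control rats had 382, 305 and 420 counts and the Na2SeO3 rats had 365, 375 and 292 counts in replicates 1, 2 and 3. The control values were 25.9, 25.7 and 26.1 CPM from column totals. The Na2SeO3 values were 26.8, 27.8 and 22.9 CPM. On this scale 2 of the 3 Na2SeO3 rats lay above every control rat and the third lay below every one of them, so the groups overlapped. The control rats averaged 25.9 ± 0.19 CPM and the Na2SeO3 rats 25.8 ± 2.56 CPM (SD, n = 3), with an exact permutation p of 1.0 (adjusted 1.0). Leaving out Na2SeO3 replicate 3 turned the small difference of -0.076 CPM into one of 1.37 CPM. Leaving out control replicate 3 turned it to 0.0058 CPM.

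The fit across all genes put Hmox1 at -0.16 ± 0.095 on the log2 scale (approximate SE), and its adjusted p was 0.166 in edgeR. The scaling mattered for this gene. With TMM factors its values were 27.6, 27.1 and 27.4 CPM in the control rats and 25.1, 26.4 and 21.8 CPM in the Na2SeO3 rats. On that scale the groups did not overlap, as in 27.2% of genes in this direction. The difference of -2.92 CPM then had an exact permutation p of 0.1, the smallest possible, while the test across genes was not passed. With column totals alone the log2 fold change was -0.0034 ± 0.096 (adjusted p = 0.979), or 99.8% of the control level (95% interval 87.1% to 114%). Over all genes tested, the median was 0.01 (log2) with TMM factors and 0.16 with column totals. Relative to that median Hmox1 was at -0.17 on either scale, and Nqo1 was at -0.97 on either scale. An Hmox1 level above 114% of control thus lay outside the interval under both scalings. A smaller rise could not be told from no change with column totals.

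**Figure D2:**
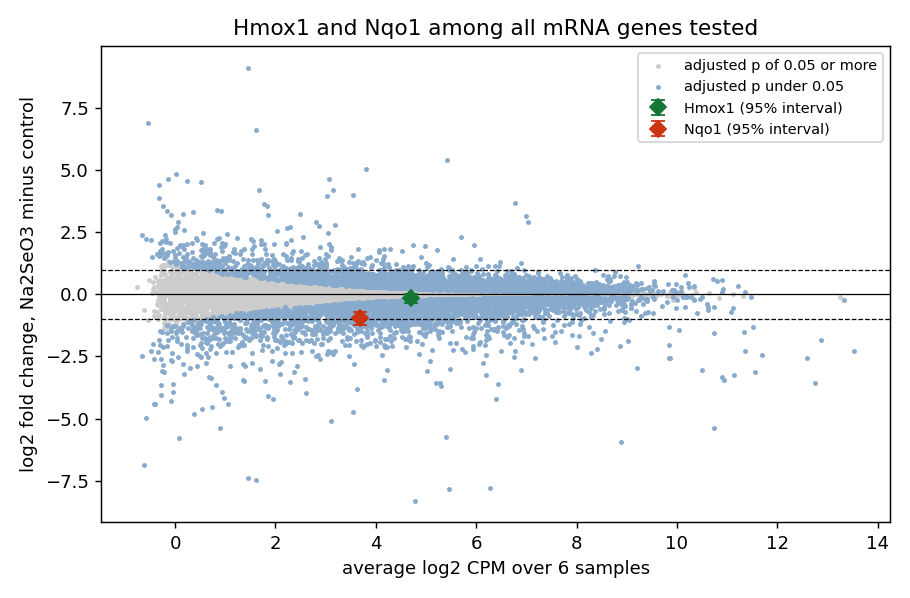
Log2 fold change (Na2SeO3 minus control, TMM factors) against average log2 CPM over 6 samples for the 14906 mRNA genes tested, with dashed lines at an absolute log2 fold change of 1 and 95% intervals on Hmox1 and Nqo1. Nqo1 at -0.97 lies next to the lower dashed line, and Hmox1 at -0.16 lies close to 0.

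The ratio of Nqo1 to Hmox1 counts within one rat does not depend on how the libraries are scaled, and it was compared between groups for that reason. It is not a ratio of transcript levels, since the counts are not corrected for transcript length. There were 0.594, 0.626 and 0.631 Nqo1 counts per Hmox1 count in the control rats. The Na2SeO3 rats had 0.304, 0.312 and 0.462. Every Na2SeO3 rat was below every control rat, with replicate 3 nearest to them. The log2 ratio averaged -0.70 ± 0.047 over the control rats and -1.50 ± 0.34 over the Na2SeO3 rats (SD, n = 3). The difference of -0.81 on the log2 scale, a change of the ratio to 0.572 of its control value, had an exact permutation p of 0.1 (adjusted 0.15), again the smallest possible. The difference was larger than the SD of either group. Whether the 2 genes of the same pathway differed in their response cannot be decided by this test, since 3 rats per group cannot bring it under 0.05. How many other gene pairs show such a gap was not tested.

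**Figure D3:**
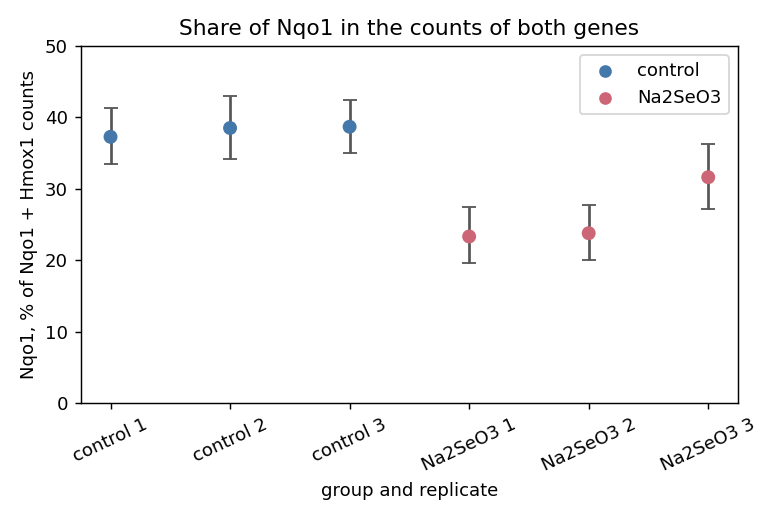
Nqo1 counts as a percentage of the Nqo1 and Hmox1 counts together in each rat, with exact (Clopper-Pearson) 95% intervals for counting error as bars. The control rats lie between 37.3% and 38.7%, Na2SeO3 replicates 1 and 2 at 23.3% and 23.8%, and Na2SeO3 replicate 3 between them at 31.6%, with an interval (27.2% to 36.3%) that overlaps the intervals of the control rats.

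Expressed as a share of the counts of both genes, Nqo1 made up 37.3%, 38.5% and 38.7% in the control rats. Its share was 23.3%, 23.8% and 31.6% in the Na2SeO3 rats. Na2SeO3 replicate 3 was the rat with both the lowest Hmox1 and the highest Nqo1 of its group, so it lay closer to the control rats in this share than its group mates did. Its exact 95% interval, 27.2% to 36.3%, reached the lower limits of the control intervals, which began at 33.4%, 34.2% and 35.02%.

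The control rats were close to each other for both genes. The coefficient of variation of TMM-adjusted CPM was 0.97% for Hmox1 and 2.73% for Nqo1 in the control group, below the 5.21% and 6.63% that counting alone would give at these depths. In the Na2SeO3 group it was 9.73% for Hmox1 and 14.6% for Nqo1, against counting errors of 5.39% and 9.09%. The Na2SeO3 rats thus spread more widely than the control rats for both genes. Whether the spread itself differed between the groups was not tested.

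Both genes were well above the floor of detection. The mRNA totals lay between 11874219 and 16120616 counts per sample, and 3 counts, taken as that floor, corresponded to 0.186 to 0.253 CPM, far below the lowest value of either gene. The mean count of Hmox1 was above that of 49.3% of the genes tested and that of Nqo1 above 32.2%. Intervals on single samples cover counting error only.

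The genes with the most similar pattern were found among 14042 others with a mean count of at least 20, by the distance between profiles over the 6 samples after each gene's own mean log2 CPM had been removed. The files give Ensembl IDs without symbols, so these genes are named by ID. The closest to Nqo1 was ENSRNOG00000060021, with 287, 235 and 320 counts in the control rats and 150, 156 and 170 in the Na2SeO3 rats, a log2 fold change of -0.88 ± 0.12 (edgeR adjusted p = 5.28e-07). The next was ENSRNOG00000056216, with 401, 364 and 488 counts in the control rats and 222, 233 and 260 in the Na2SeO3 rats, a log2 fold change of -0.87 ± 0.10 (edgeR adjusted p = 7.06e-08). Both were lower in each Na2SeO3 rat than in any control rat, with replicate 3 highest in its group, as Nqo1 did. The closest to Hmox1 was ENSRNOG00000007023, with a log2 fold change of -0.15 ± 0.10 (edgeR adjusted p = 0.234). It was followed by ENSRNOG00000003841, with a log2 fold change of -0.19 ± 0.086 (edgeR adjusted p = 0.069). Pearson's r with the gene in question was 0.998 and 0.997 for the Nqo1 pair and 0.991 and 0.983 for the Hmox1 pair, over 6 samples that share their libraries and the group difference, and genes were picked for this likeness.

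Other genes of the pathway, such as Nfe2l2 (which encodes NRF2), Keap1, the glutathione and thioredoxin enzymes and the selenoproteins, were not described, because the reference table paired 0 of the Ensembl IDs tested with a symbol. For the same reason markers of lens epithelium, lens fibres, macrophages (a cell type known for high Hmox1) and blood were not examined. Their part in the values of Hmox1 and Nqo1, and the agreement of the samples with the labelled tissue, was not tested.

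The values of both genes were then followed through other scalings, filters and tests. Nqo1 was lower in the Na2SeO3 group in 19 of 19 alternatives, with log2 fold changes between -1.09 and -0.81. Hmox1 was also on the negative side in 19 of 19, between -0.22 and -0.0034, and in none of these did it pass an adjusted p of 0.05 (0.105 to 0.979 apart from the test against a minimum fold change). The setting that moved both genes most toward 0 was the one with column totals alone.

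**Figure D4:**
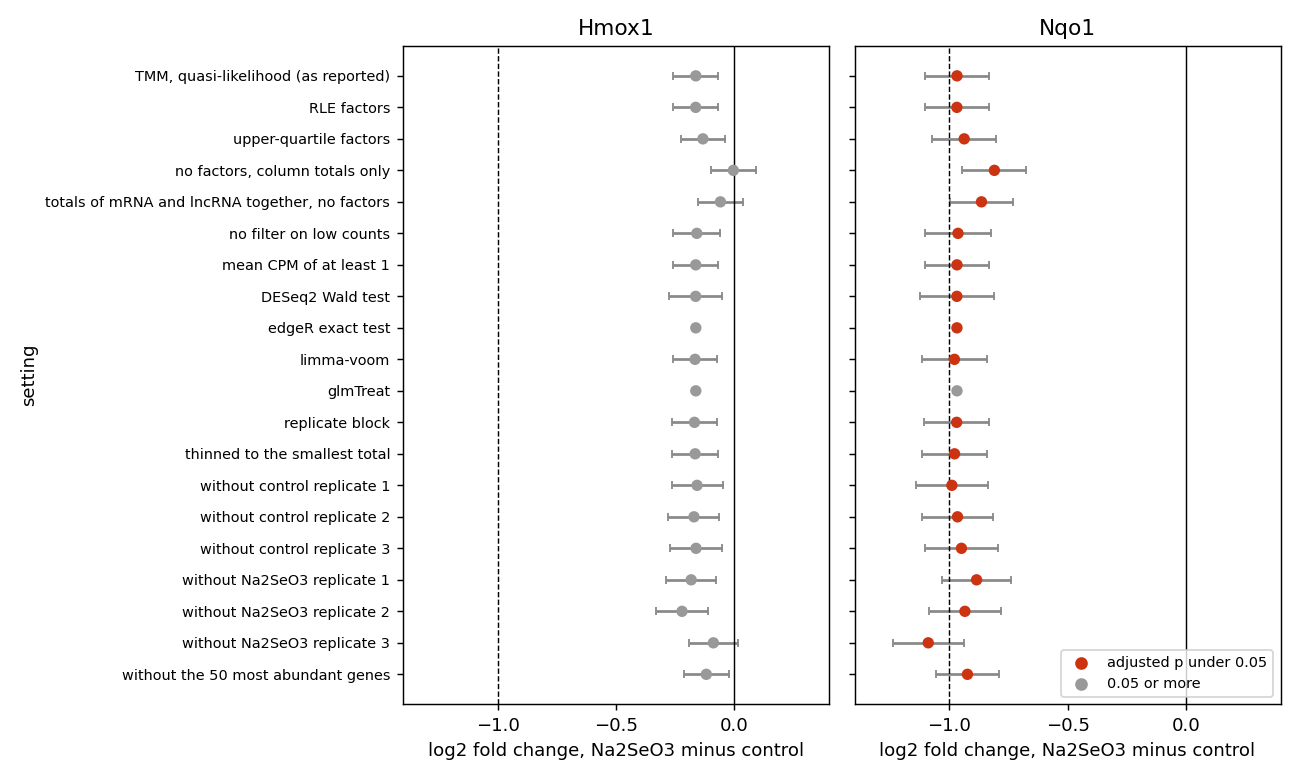
Log2 fold change (Na2SeO3 minus control) of Hmox1 (left) and Nqo1 (right) under each setting, with the approximate SE as bars where the method gives one, red points for an adjusted p under 0.05, grey points otherwise, a solid line at 0 and a dashed line at -1. The Nqo1 points run from -1.09 to -0.81 and are red except with glmTreat, and the Hmox1 points run from -0.22 to -0.0034 and are all grey.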

How the data were processed

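Total RNA of lens capsules was sequenced as 150 bp paired-end reads. Per the submitters' processing notes and the study's methods, reads were trimmed with Cutadapt and Fqtrim, checked with FastQC and aligned with HISAT2 to an Ensembl rat reference; versions, build, annotation release, counter and strandedness are not given in the sources used here. The authors deposited raw whole-number read counts per gene, 1 column per sample. The symbols of the 2 IDs came with the selection rule. The lncRNA counts served only for an alternative total, and the circRNA counts were not used.

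Genes were filtered with filterByExpr, scaled with TMM factors and compared by the edgeR 4.0.16 quasi-likelihood test (R 4.3.3) with Benjamini-Hochberg adjustment over 14906 genes. The SE was taken as the absolute log2 fold change over the square root of F, and the 95% interval from the t distribution of the fit. CPM and ratios were compared by exact permutation (scipy 1.17.1). The fit was tested on simulated data, which did not test the choice between TMM factors and column totals. DESeq2 1.42.0, limma 3.58.1, other scalings and filters, thinning, a replicate block and left-out samples were alternatives. The chi-square statistic per gene (1 for counting noise alone) was 2.18 to 5.46 for replicate pairs, so no pair looked like copies of 1 library. The study's discussion calls the model and control animals paired but does not say how, and the main fit treated them as unpaired. Otherwise the sources say of the replicates only that they are separate rats. The genes, lists and tests were chosen with earlier results of these data known. Named were the 2 genes and, for each, the 2 tested genes of most similar profile; pathway lists and markers fixed by symbol could not be applied.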

Additional observations from a re-analysis of the deposited data

How the results depend on the processing

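The sign of the log2 fold change was kept by Nqo1 and by Hmox1 in each of the 19 alternatives, which all draw on the same 6 samples. For Hmox1 the value with column totals, -0.0034 ± 0.096 (approximate SE), could not be told from 0. With glmTreat, which tests against a log2 fold change of 1, Nqo1 at -0.97 had an adjusted p of 1.0; in the other alternatives its adjusted p lay between 1.42e-11 and 1.93e-05. Leaving out each rat in turn gave -1.09 to -0.88 for Nqo1, -0.22 to -0.088 for Hmox1, -1.002 to -0.70 for the log2 count ratio, -7.58 to -6.35 CPM for the Nqo1 difference and -1.05 to 1.37 CPM for the Hmox1 difference, whose sign is therefore not determined. With TMM-adjusted totals the differences were -8.23 CPM for Nqo1 and -2.92 CPM for Hmox1. In this fit 1155 genes (376 higher, 779 lower) passed the study's thresholds, more than the study itself reported with edgeR in either direction. Its further settings are not given, and the reason for the gap was not tested. The count became 6990 when no minimum fold change was set, 439 under glmTreat and 1158 to 1187 with a rat left out. Column totals gave 588 higher and 610 lower. With the replicate number as a block in edgeR, Nqo1 was at -0.97 (adjusted p = 1.35e-05), Hmox1 at -0.17 (adjusted p = 0.163) and 1142 genes passed. Deviations of same-numbered samples from their group means correlated at -0.017, -0.011 and -0.01, and those of differently numbered samples at -0.0081 to 0.018. With means of 3 rats these values cannot tell whether the rats were paired. The scaling without the 50 most abundant genes was added after the data were seen and gave -0.92 for Nqo1 and -0.12 for Hmox1. The pathway lists were not run, for want of symbols.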
